A study of Mus musculus with 6 samples.

Results

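The 9 genes that carry the profibrotic TGF-beta signal or its matricellular relays were followed in mouse hearts after 5/6 nephrectomy, a surgical model of chronic kidney disease (CKD). They were taken by name as 3 ligands (Tgfb1, Tgfb2 and Tgfb3), 2 receptors (Tgfbr1 and Tgfbr2), 3 matricellular proteins (Ctgf, listed under its current symbol Ccn2, Postn and Thbs1) and the collagen cross-linking enzyme Lox. All 9 were measured, among 19505 genes in all. The CKD group was 3 Balb/c mice in which part of the right renal cortex was electrocoagulated and the left kidney was removed 2 weeks later. The sham group was 3 Balb/c mice that had a laparotomy and kept both kidneys. The study's methods give male mice aged 8 weeks at the kidney operation. They describe Balb/c sets followed for 8 weeks on normal diet or for 12 weeks, some with a high phosphate diet or a drug. Neither they nor the labels say from which set these hearts came. Total RNA of each heart sample was hybridised to 1 Affymetrix Clariom S array, and levels are log2 values, so that a difference of 1 is a 2-fold change.

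Transforming growth factor beta is secreted bound to its own propeptide and to a binding protein that anchors it in the matrix. Integrins, proteases and thrombospondin free the ligand, which binds the type II receptor. That receptor recruits and phosphorylates the type I receptor, and Smad2 and Smad3 then enter the nucleus with Smad4. In the heart this route is best known for turning resident fibroblasts into matrix-secreting myofibroblasts after injury or overload. Matricellular proteins such as connective tissue growth factor and periostin are secreted into the matrix in response and act on cells rather than as scaffold, while lysyl oxidase cross-links collagen once it is laid down.

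The 6 arrays had median log2 levels between 4.83 and 4.86, and the number of mice limits the precision. A gene was counted as changed when its level differed more than 1.5-fold with a p under 0.05 before adjustment, the criterion in the study's methods, here with limma's moderated test. Across the array 1233 genes met it, 610 higher and 623 lower in CKD hearts, and 2 genes had an adjusted p under 0.05 (Benjamini-Hochberg over all genes). Among single arrays, dropping CKD replicate 1 changed the number of genes past the criterion most, to 2037. Dropping sham replicate 1 gave 1654, and dropping CKD replicate 3 gave 1105. By their atrial markers, the arrays of CKD replicate 3 and sham replicate 1 stood apart from their groups. The mean level of 12 atrial markers was 9.22, 9.34 and 11.72 on the CKD arrays, highest in CKD replicate 3, against 9.65, 7.95 and 7.56 on the sham arrays, highest in sham replicate 1. The mean of 11 macrophage markers was 8.67, 7.68 and 8.19 in CKD and 7.94, 9.26 and 9.16 in sham, lowest among the sham hearts in replicate 1. Heart muscle markers averaged 17.53 to 17.87 in CKD and 17.64 to 17.72 in sham, and 0 of 12 changed by limma, with 0 at an unadjusted p under 0.05. Of the 12, Pln, Myl2, Tnnt2 and Mb lay at 19.84 to 19.95 on every array, near the highest level in the table (20), where a change could be hidden, and the other 8 differed by -0.42 to 0.48. In RNA from whole tissue, fewer cells of a type and less RNA per cell cannot be told apart.

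Of the 9 genes 1 met the criterion. Lox was lower in CKD hearts, and the 3 ligands, both receptors and the 3 matricellular genes were not past it. This 1 of 9 (11.1%) stands beside 6.32% of all genes in either direction, 3.13% higher and 3.19% lower. Lox was also the 1 gene with an unadjusted p under 0.05, beside 9.14% of all genes. None of the 9 had an adjusted p under 0.05, beside 0.0103% of all genes, and the lowest of the 9 was 0.523 (limma, Benjamini-Hochberg over all genes). The groups overlapped for all 9, where 13.6% of all genes had groups that did not overlap, 6.93% with CKD above and 6.71% with CKD below. Of the 9 differences 4 were positive and 5 negative, with a median of -0.02 on the log2 scale (median of all genes -0.003).

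**Figure D1:**
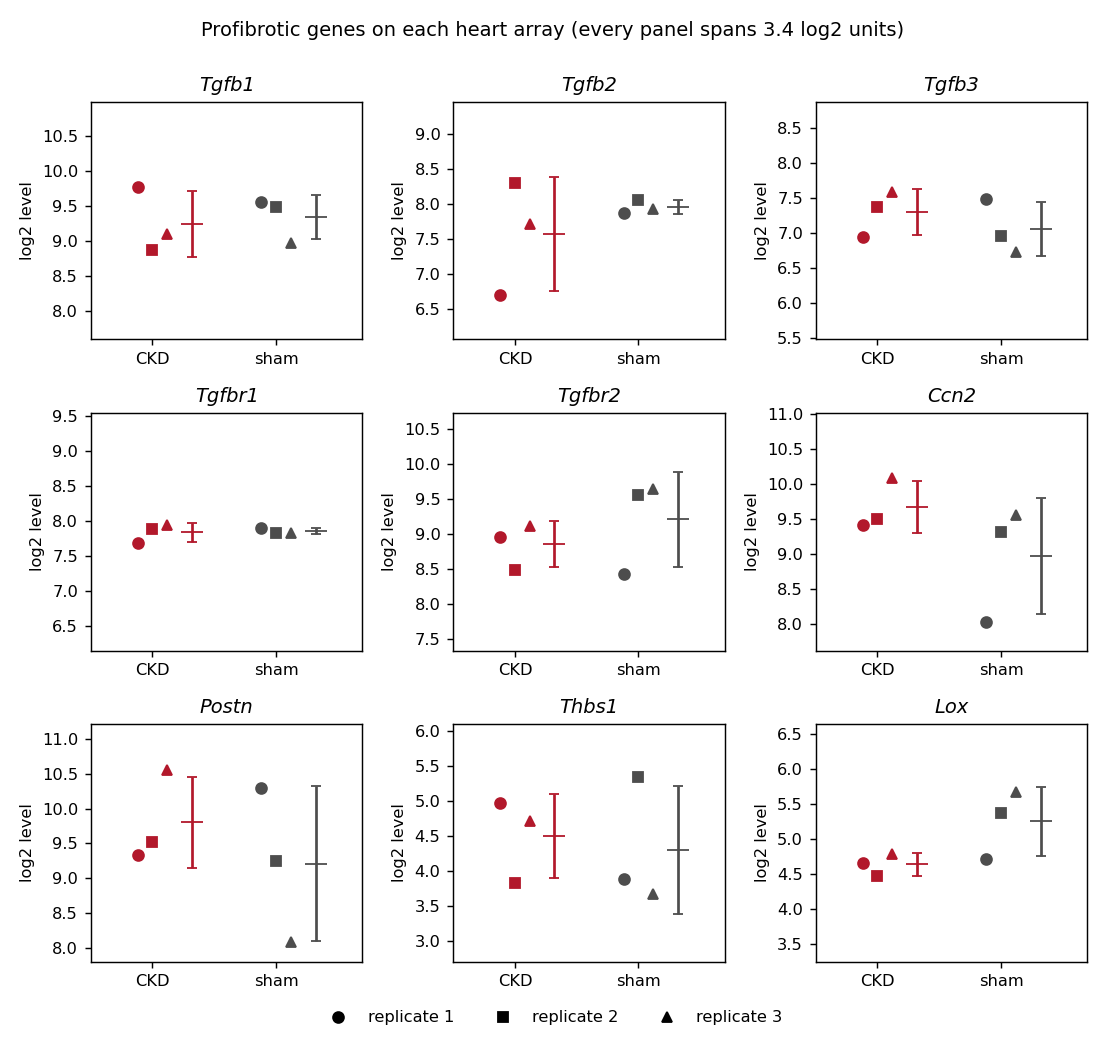
Log2 level (y axis) of the 9 profibrotic genes on each array, CKD left of sham, with symbols for replicates 1, 2 and 3 and bars for the mean ± SD (n = 3 each). Every panel spans the same number of log2 units. The CKD and sham points overlap in every panel, and Tgfbr1 is the gene with the narrowest spread.

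Among the ligands none was past the criterion, and their values crossed between the groups. Tgfb1, the main isoform made by macrophages, platelets and fibroblasts, had log2 levels of 9.77, 8.87 and 9.10 in CKD hearts, against 9.56, 9.49 and 8.98 in sham hearts. The highest and the lowest of these 6 values were both from CKD mice. The means were 9.25 ± 0.47 in CKD and 9.34 ± 0.32 in sham (SD, n = 3 each), a difference of -0.10 (95% interval -0.72 to 0.53, limma adjusted p = 0.950). Tgfb2, an isoform needed for valve and outflow tract development, had 6.69, 8.30 and 7.71 in CKD and 7.87, 8.06 and 7.93 in sham. The sham hearts lay close together, with an SD of 0.10, and the CKD hearts lay on both sides of them, with an SD of 0.81. The difference in means was -0.39 (95% interval -1.20 to 0.42, limma adjusted p = 0.811). Without CKD replicate 2, the highest, Tgfb2 passed the criterion at -0.75.

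Tgfb3, the third isoform, had log2 levels of 6.94, 7.37 and 7.59 in CKD and 7.48, 6.95 and 6.73 in sham. The 2 highest CKD hearts were above 2 of the sham hearts, and sham replicate 1 was among the high values. The difference was 0.25 (95% interval -0.34 to 0.83, limma adjusted p = 0.837). For Tgfb1 and Tgfb3 this interval excludes a 2-fold difference in either direction, and for Tgfb2 it does not.

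The type I receptor was the most even of the 9 genes. Tgfbr1, the kinase that phosphorylates Smad2 and Smad3, had log2 levels of 7.68, 7.89 and 7.94 in CKD and 7.90, 7.83 and 7.83 in sham. The difference was -0.02 (95% interval -0.42 to 0.39, limma adjusted p = 0.989), which excludes a 1.5-fold difference either way. Its pooled within-group SD was at percentile 3.62 of all genes. Tgfbr2, the ligand-binding type II receptor, had 8.96, 8.49 and 9.12 in CKD and 8.43, 9.56 and 9.64 in sham. All 3 CKD values lay between the lowest sham heart, replicate 1, and the other 2 sham hearts. The means were 8.86 ± 0.33 and 9.21 ± 0.68 (CKD and sham, SD, n = 3 each), a difference of -0.35 (95% interval -1.11 to 0.40, limma adjusted p = 0.817). Without sham replicate 1 Tgfbr2 passed the criterion at -0.74 (limma adjusted p = 0.370). That array was also the sham array with the lowest macrophage marker mean, 7.94 against 9.26 and 9.16 on the other sham arrays. Of the 11 macrophage markers, 4 fell in CKD and 0 rose (36.4%, beside 6.32% of all genes past the criterion). The 4 were the chemokine receptor gene Cx3cr1 (-0.79), the Fc receptor gene Fcgr1 (-1.06), the surface gene Adgre1 (-1.05) and the complement gene C1qb (-1.47). Sham replicate 1 was the lowest sham value for Adgre1, C1qb and Fcgr1 but not for Cx3cr1, at 4.93 against 4.81 and 5.21, and for Fcgr1 it lay close to the others, at 6.97 against 7.31 and 7.11. Cd163 (0.61) and Mertk (0.16) were positive and not past the criterion. The part of macrophage content in the Tgfbr2 values was not tested.

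The matricellular genes had the widest spread. Ccn2, connective tissue growth factor, a direct target of both Smad and YAP signalling, had log2 levels of 9.41, 9.50 and 10.09 in CKD and 8.02, 9.32 and 9.56 in sham. The 2 lower CKD values lay inside the sham range, and sham replicate 1 was the lowest of the 6. The difference was 0.70 (1.62-fold, 95% interval -0.18 to 1.58, limma adjusted p = 0.647). It was 0.23 without sham replicate 1. Without sham replicate 3 it was 0.997 and met the criterion (limma adjusted p = 0.853).

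Postn, periostin, which cardiac fibroblasts and valve cells secrete and which marks myofibroblasts after injury, had log2 levels of 9.34, 9.52 and 10.55 in CKD and 10.30, 9.25 and 8.09 in sham. The 2 highest values came from CKD replicate 3 and sham replicate 1, the arrays with the highest atrial marker mean of their groups. The means were 9.80 ± 0.65 in CKD and 9.21 ± 1.11 in sham (SD, n = 3 each), a difference of 0.59 (95% interval -0.59 to 1.77, limma adjusted p = 0.799). Its pooled SD was at percentile 98.6 of all genes. Leaving out sham replicate 1 gave 1.13, which met the criterion (limma adjusted p = 0.434). The difference was 0.22 when CKD replicate 3 was left out and 0.03 when sham replicate 3 was. Of the 12 atrial markers 4 rose and 0 fell (33.3%, beside 6.32% of all genes past the criterion). The 4 were Bmp10 (5.14), Myl4 (4.30), Sln (3.31) and Tbx5 (0.73). The atrial light chain gene Myl4 had 11.01, 11.53 and 15.29 in CKD against 10.91, 7.72 and 6.29 in sham. The part of atrial tissue in the Postn values was not tested.

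**Figure D2:**
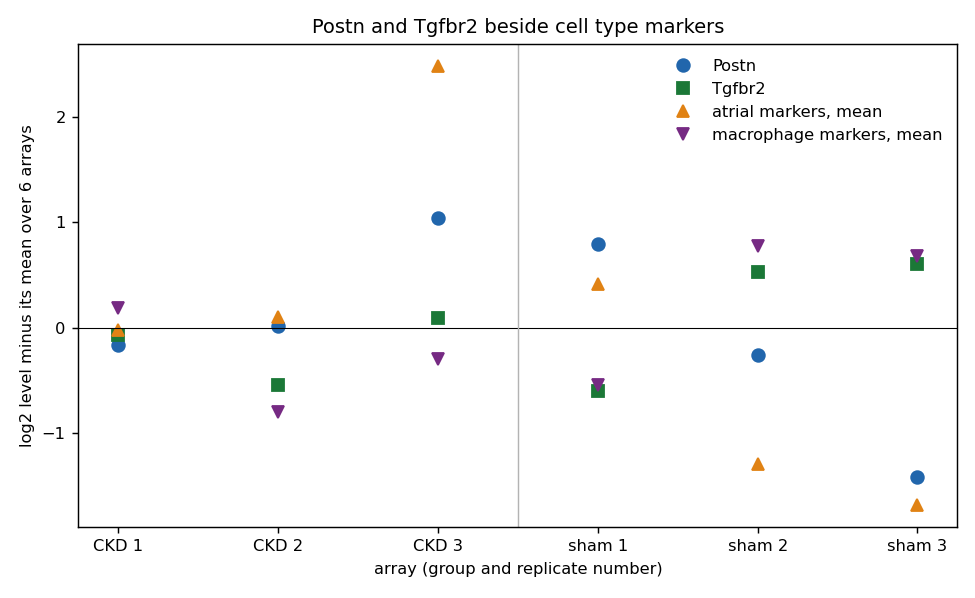
Log2 level of Postn and Tgfbr2 and the mean of the atrial and macrophage marker lists on each of the 6 arrays, each minus its own mean over the 6 arrays (y axis, log2 units), CKD arrays left of the line and sham arrays right of it. Postn and the atrial markers are both highest on the CKD 3 and sham 1 arrays, and Tgfbr2 and the macrophage markers are both highest on the sham 2 and sham 3 arrays.

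The fibroblast marker means overlapped between the groups. The mean of 14 resident fibroblast markers was 10.23 to 10.71 in CKD and 10.46 to 10.71 in sham. Of these 0 were higher and 2 lower (14.3%, beside 6.32% of all genes past the criterion), the collagen receptor gene Ddr2 (-0.87) and Pi16 (-0.62). The mean of 15 activated fibroblast markers was 5.52 to 6.01 in CKD and 5.46 to 5.74 in sham, and 0 of 15 were past the criterion by limma, where 1, Sfrp1, had an unadjusted p under 0.05. RefSeq lists 2 start windows for Postn on GRCm38.p6. The one with a TATA box, at chr3:54360857-54361156 on the plus strand, is shown because Postn is the gene of the 9 with the widest spread, with TATAAA in capitals.

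Postn: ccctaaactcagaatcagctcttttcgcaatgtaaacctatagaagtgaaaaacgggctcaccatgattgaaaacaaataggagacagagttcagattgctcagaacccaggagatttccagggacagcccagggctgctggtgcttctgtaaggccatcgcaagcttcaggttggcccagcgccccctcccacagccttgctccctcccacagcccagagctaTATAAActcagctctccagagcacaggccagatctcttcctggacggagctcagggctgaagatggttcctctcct

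TATAAA, searched on both strands, was in 13.6% of 32851 RefSeq mouse windows of the same 300 bases, from 250 before to 50 after a start. Neither the Smad repeat CAGACAGA, in 2.53% of all windows, nor the TEAD site GGAATG, in 14.7%, was in either Postn window. Windows were matched for 5 of the 9 genes. Windows on a single chromosome were left out for the named genes but not for the shares of all windows. The sequences and motifs were chosen with the expression values known.

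Thbs1, thrombospondin, an activator of latent TGF-beta, had log2 levels of 4.97, 3.83 and 4.72 in CKD and 3.88, 5.35 and 3.67 in sham. One sham heart, replicate 2, was the highest of the 6, and 2 CKD hearts followed it. The difference was 0.21 (95% interval -0.82 to 1.23, limma adjusted p = 0.932), and its sign turned to -0.11 when sham replicate 3 was left out. The pooled SDs of Postn, Thbs1, Ccn2, Tgfb2 and Tgfbr2 were at percentiles 98.6, 97.7, 95.7, 93.8 and 91.6 of all genes.

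**Figure D3:**
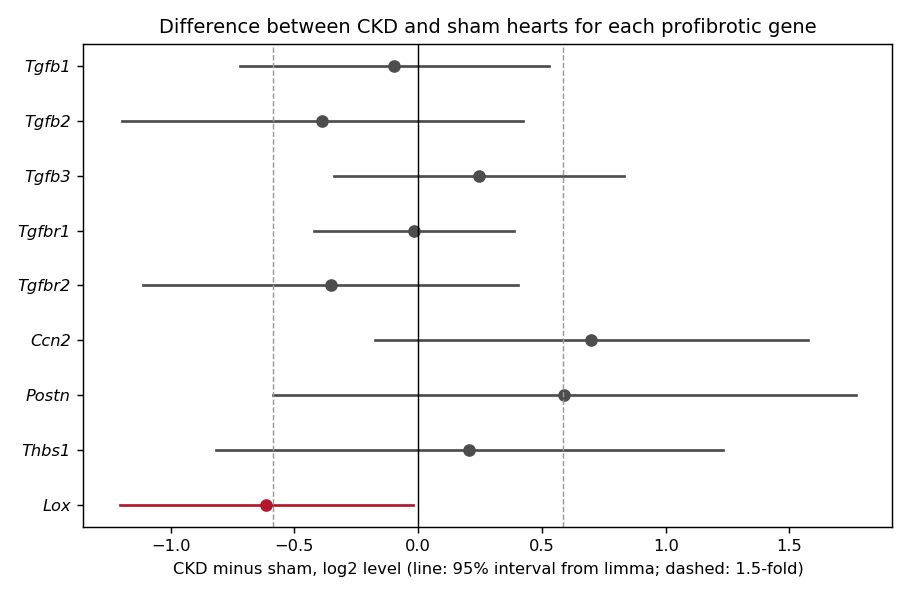
Difference between CKD and sham hearts (x axis, CKD minus sham in log2 units) for each of the 9 genes, with the 95% interval from limma as a line and the 1.5-fold limits dashed. The Lox interval, from -1.20 to -0.02, is the only one of the 9 that leaves out 0.

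Lox, lysyl oxidase, oxidises lysines of collagen and elastin so that the fibres can be cross-linked, and was the gene of the 9 that met the criterion. Its log2 levels were 4.65, 4.47 and 4.79 in CKD and 4.71, 5.37 and 5.67 in sham. The 2 other sham hearts were above every CKD heart, and sham replicate 1 was inside the CKD range. The means were 4.64 ± 0.16 in CKD and 5.25 ± 0.49 in sham (SD, n = 3 each), a difference of -0.61 (0.654-fold, 95% interval -1.20 to -0.02, limma adjusted p = 0.523). Leaving out sham replicate 1 gave -0.88, and leaving out any other single array ended the call, with differences from -0.40 without sham replicate 3 to -0.69 without CKD replicate 3. The 5 genes whose centred levels over the 6 arrays lay nearest to Lox were Mypn, a sarcomere gene, at a root mean square distance of 0.08 log2 units, Cpt2, of mitochondrial fatty acid import, at 0.10, Pgap3 at 0.11, Gys1, muscle glycogen synthase, at 0.12, and Leng8 at 0.12.

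Other genes that mature or cross-link collagen were also lower. Of 21 listed genes 18 were measured, and 4 fell and 0 rose (22.2%, beside 3.19% of all genes lower). Of the 18 differences 13 were negative, with a median of -0.25 (median of all genes -0.003), and the adjusted p of the 4 lay between 0.336 and 0.497 (limma, Benjamini-Hochberg over all genes). The list was written with earlier results of these data known. Serpinh1, the collagen chaperone of the endoplasmic reticulum, had log2 levels of 9.39, 7.79 and 8.66 in CKD and 9.89, 10.03 and 10.25 in sham. Every CKD heart was below every sham heart, and the difference was -1.44 ± 0.36 (SE, limma adjusted p = 0.336).

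Plod1, which hydroxylates collagen lysines, had 8.74, 8.12 and 8.72 in CKD and 9.40, 8.85 and 9.33 in sham, with no overlap between the groups and a difference of -0.67 ± 0.25 (SE). P4ha1, a catalytic subunit of the prolyl hydroxylase that stabilises the triple helix, had 10.05, 10.38 and 10.33 in CKD and 10.31, 11.29 and 11.48 in sham (difference -0.77 ± 0.30, SE). P4ha2, the alternative subunit, had 7.79, 7.53 and 7.47 in CKD and 7.57, 8.85 and 9.02 in sham (difference -0.88 ± 0.35, SE). For both subunits sham replicate 1 lay inside the CKD range, as it did for Lox. Without that array 6 of the 18 genes were past the criterion, without sham replicate 2 there were 2, and without sham replicate 3 there was 1. In the same 3 fits 8.48%, 5.13% and 5.03% of all genes were past it. Serpinh1 kept its call with each array left out. Plod1 lost it without CKD replicate 2 (-0.46) and without sham replicate 1 (-0.56) or 3 (-0.60). P4ha1 lost it without CKD replicate 1 (-0.67) or 3 (-0.81) and without sham replicate 2 (-0.64) or 3 (-0.55), and P4ha2 without CKD replicate 2 (-0.85) or 3 (-0.82) and without sham replicate 2 (-0.70) or 3 (-0.61). Loxl1, a lysyl oxidase of elastic fibres, was at 6.65, 6.80 and 6.59 in CKD and 6.94, 7.41 and 7.35 in sham, below the fold limit at -0.55. Tgm2, a transglutaminase, was at -1.01 (limma adjusted p = 0.552) and was not past the criterion. The collagen genes themselves were not past it either, at 0.36 for Col1a1, -0.33 for Col1a2 and -0.25 for Col3a1.

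**Figure D4:**
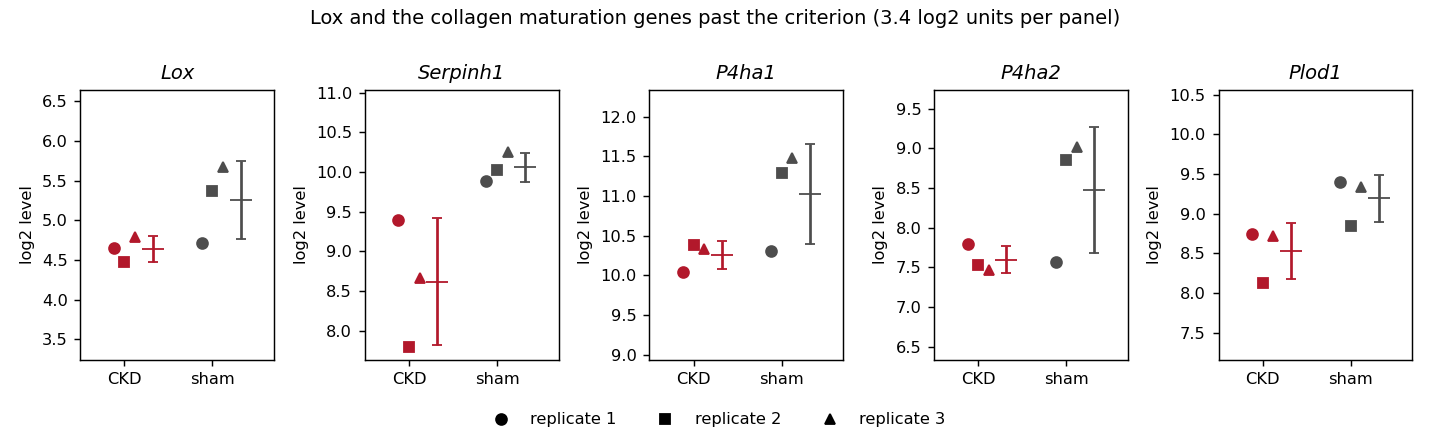
Log2 level (y axis) of Lox and of the 4 collagen maturation genes past the criterion on each array, CKD left of sham, with the mean ± SD (n = 3 each). Sham replicate 1 (circle) is the lowest sham value for Lox, Serpinh1, P4ha1 and P4ha2, and the groups do not overlap for Serpinh1 and Plod1.

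The RefSeq start windows of these 4 genes (GRCm38.p6) are shown because all 4 genes fell. Capitals mark TATAAA and ACGTG, the core of a hypoxia response element, on either strand, so that CACGT and TTTATA are matches on the opposite one. Serpinh1 lies at chr7:99353190-99353489 and Plod1 at chr4:147936727-147937026, both on the minus strand, and P4ha1 at chr10:59323046-59323345 and P4ha2 at chr11:54100674-54100973, both on the plus strand.

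Serpinh1: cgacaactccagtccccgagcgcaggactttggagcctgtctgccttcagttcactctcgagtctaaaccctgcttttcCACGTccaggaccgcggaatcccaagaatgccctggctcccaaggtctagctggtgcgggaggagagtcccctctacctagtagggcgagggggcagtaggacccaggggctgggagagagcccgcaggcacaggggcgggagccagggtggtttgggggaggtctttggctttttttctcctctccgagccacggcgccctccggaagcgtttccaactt

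P4ha1: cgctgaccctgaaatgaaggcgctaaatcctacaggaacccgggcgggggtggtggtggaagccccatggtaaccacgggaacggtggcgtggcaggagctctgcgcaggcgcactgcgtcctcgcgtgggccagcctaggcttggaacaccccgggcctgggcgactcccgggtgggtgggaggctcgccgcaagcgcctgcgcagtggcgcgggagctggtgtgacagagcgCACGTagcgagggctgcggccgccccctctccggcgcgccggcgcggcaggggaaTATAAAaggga

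P4ha2: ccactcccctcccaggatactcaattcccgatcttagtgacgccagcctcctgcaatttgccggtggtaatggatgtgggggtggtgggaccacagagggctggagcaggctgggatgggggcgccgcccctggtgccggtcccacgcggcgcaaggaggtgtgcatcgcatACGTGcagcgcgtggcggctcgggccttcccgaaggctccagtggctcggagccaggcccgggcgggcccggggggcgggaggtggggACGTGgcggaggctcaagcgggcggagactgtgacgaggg

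Plod1: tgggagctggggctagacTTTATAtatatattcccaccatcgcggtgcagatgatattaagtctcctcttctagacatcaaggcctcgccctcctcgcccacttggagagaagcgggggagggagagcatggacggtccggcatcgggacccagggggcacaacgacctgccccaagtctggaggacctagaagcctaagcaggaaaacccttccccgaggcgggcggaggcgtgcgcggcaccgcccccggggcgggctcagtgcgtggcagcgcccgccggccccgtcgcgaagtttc

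ACGTG was in 3 of the 4 windows, those of Serpinh1, P4ha1 and P4ha2, and in 19.6% of all windows. TATAAA was in those of P4ha1 and Plod1. The GC box GGGCGG was in all 4 and in 35.7% of all windows. The heat shock element, the TEAD site, the Smad repeat and the AP-1 site were also searched and were in 0 of the 4. Of the 5 profibrotic genes with a window, 1 had ACGTG. The 4 genes were picked by their fall in these data and the windows were not matched for base content, so these shares cannot show enrichment. A letter match is not a measured binding site.

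Outside collagen maturation, 9 of 124 other pathway genes rose and 1, Lrrc32, fell, with a median difference of 0.07. Of all genes 3.13% rose and 3.19% fell. This split sets apart the list whose genes past the criterion all fell. Over all 142 pathway genes other than the 9, collagen maturation included, 9 rose and 5 fell (9.86% past the criterion, beside 6.32% of all genes), with a median difference of 0.03. Among genes of latency and activation, 2 of 19 measured rose and 1 fell (15.8%, beside 6.32% of all genes). Itgb8, a subunit of the integrin that frees latent TGF-beta, had log2 levels of 5.46, 5.47 and 5.01 in CKD and 4.74, 4.31 and 4.52 in sham, with no overlap between the groups and a difference of 0.79 ± 0.21 (SE, limma adjusted p = 0.346). Ltbp3, a latent TGF-beta binding protein, had 6.33, 5.43 and 6.53 in CKD and 4.85, 5.58 and 5.20 in sham (difference 0.89 ± 0.32, SE). Lrrc32, which holds latent TGF-beta on regulatory T cells and platelets, had 3.91, 3.71 and 3.59 in CKD and 3.68, 5.01 and 5.10 in sham (difference -0.86 ± 0.35, SE), and sham replicate 1 again lay inside the CKD range. Ltbp3 lost its call without CKD replicate 1 (0.77) or 3 (0.67) and without sham replicate 1 (0.71), and Lrrc32 without CKD replicate 2 (-0.85) or 3 (-0.79) and without sham replicate 2 (-0.65) or 3 (-0.61), while Itgb8 kept it with each array left out.

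None of 11 other receptors and co-receptors and none of 19 Smads and their regulators was past the criterion by limma, beside 6.32% of all genes (1 Smad regulator, Skil, had an unadjusted p under 0.05). Smad2 was at 0.25, Smad3 at 0.15, Smad4 at 0.25 and the inhibitory Smad7 at 0.12. Skil, which encodes a repressor of Smad transcription and is itself a target, was lower on every CKD array at 8.91, 8.73 and 8.69, against 9.13, 9.31 and 9.43 in sham, under the fold limit at -0.51.

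Of 17 other ligands and ligand traps of the superfamily measured, 2 rose and 0 fell (11.8%, beside 6.32% of all genes past the criterion). Bmp4, a ligand of the BMP branch, had log2 levels of 7.78, 7.65 and 7.77 in CKD and 6.82, 6.72 and 6.30 in sham. The groups did not overlap, and the difference of 1.12 ± 0.20 (SE, limma adjusted p = 0.285) was 2.17-fold. Mstn, myostatin, a brake on muscle growth, had 5.22, 5.15 and 4.76 in CKD and 3.76, 3.82 and 4.68 in sham (difference 0.96 ± 0.28, SE). Both kept their call with each array left out.

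Target genes of TGF-beta gave 1 higher and 0 lower of 23 (4.35%, beside 6.32% of all genes past the criterion). Cnn1, the smooth muscle calponin, had log2 levels of 7.13, 6.79 and 8.09 in CKD and 6.20, 5.10 and 5.79 in sham (difference 1.64 ± 0.38, SE, limma adjusted p = 0.336). It is also a smooth muscle marker. Of 13 smooth muscle and pericyte markers 3 rose, Cnn1, Myh11 (0.66) and Mylk (0.63), while Vtn fell (-0.93), so that 30.8% were past the criterion, beside 6.32% of all genes. Their mean was 8.92, 8.87 and 9.32 in CKD and 8.89, 8.46 and 8.71 in sham, and the part of smooth muscle content in the Cnn1 values was not tested. Acta2, smooth muscle actin, which myofibroblasts also make, was at 13.24, 15.51 and 15.33 in CKD and 14.03, 13.25 and 13.49 in sham. The lowest CKD heart was barely below the lowest sham heart, and the difference of 1.10 was not past the criterion (limma adjusted p = 0.584). Fn1, fibronectin, was at 0.10.

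Of 22 other matricellular genes 1 rose (4.55%, beside 6.32% of all genes past the criterion). This was the proteoglycan gene Spock2, with 7.15, 5.99 and 6.75 in CKD and 4.65, 5.98 and 5.88 in sham (difference 1.13 ± 0.40, SE). Spock2 lost its call without CKD replicate 1 (0.87) or 3 (1.07) and without sham replicate 1 (0.70). The widest differences of this list not past the criterion were those of Sparc (-1.14, limma adjusted p = 0.620) and Ccn3 (0.93, limma adjusted p = 0.570). Thbs2 was at 0.06 and Tnc, tenascin C, at 0.45. Of 21 YAP and TEAD target genes, the other route that controls Ccn2, 3 rose and 0 fell (14.3%, beside 6.32% of all genes). Ankrd1, a stress-responsive muscle gene, had log2 levels of 18.80, 19.75 and 19.45 in CKD and 18.78, 18.66 and 18.58 in sham. The groups did not overlap, but CKD replicate 1 was barely above sham replicate 1. The difference was 0.66 ± 0.26 (SE, limma adjusted p = 0.480), at levels not far below the highest in the table (20). Asap1 differed by 0.64 and Crim1 by 0.61. Ankrd1 lost its call without CKD replicate 2 (0.45) or 3 (0.60) and without sham replicate 2 (0.65) or 3 (0.61), Asap1 without CKD replicate 3 (0.46) or sham replicate 1 (0.55), and Crim1 with every array but CKD replicate 2 and sham replicate 3 left out in turn (0.41 to 0.60 in those fits).

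**Figure D5:**
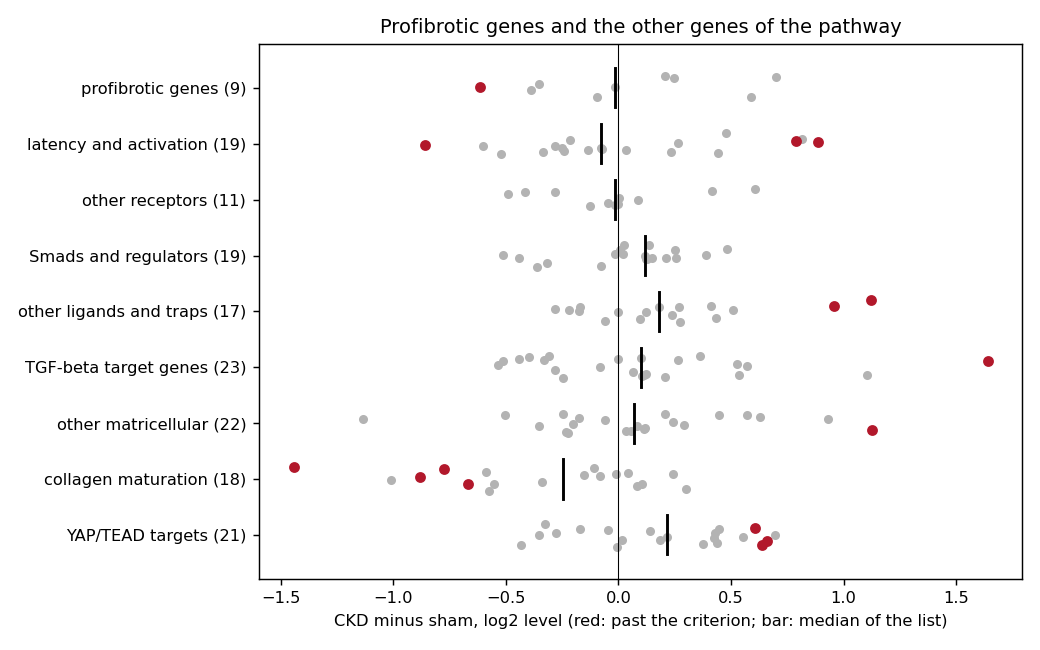
Difference between CKD and sham hearts (x axis, CKD minus sham in log2 units) for the 9 profibrotic genes and the other genes of the pathway by list, each point 1 gene, red where it was past the criterion, with a bar at the median of each list. The number of measured genes stands beside each name, and the collagen maturation list holds 4 red points, all below 0.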

How the data were processed

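RNA of 6 hearts (3 CKD, 3 sham, 1 Clariom S array each) was used. The authors deposited 1 table of log2 levels, which the submitters' processing notes and the methods attribute to robust multiarray averaging (RMA), whose version is not given in the sources used here. RMA brings the arrays to nearly the same distribution (medians 4.83 to 4.86), so levels are relative within an array. The labels name separate mice and no scan dates or batches. Of 22206 probe sets, 19572 had 1 gene symbol in the platform annotation, 0 had several and 2634 were unnamed here, and the brightest probe set stood for each of the 55 genes that had more than 1, giving 19505 genes. CKD was compared with sham in limma 3.58.1 (R 4.3.3, lmFit and eBayes, no covariates), checked first on simulated data. The criterion was a change of more than 1.5-fold together with p under 0.05 before adjustment, and adjusted p-values are Benjamini-Hochberg over all genes. The median standard error of a difference was 0.227 log2 units. Alternatives were an unmoderated t-test, trended robust moderation, array weights, 3 further normalizations, 2 filters on dim genes, averaged probe sets, a replicate block, fits without each array, and other limits. The methods name a t-test for comparing groups in general and no test for arrays. Figures were drawn with matplotlib 3.10.9.

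The 9 genes, the gene lists and the tests were chosen with earlier results of these data known. Named genes were the 9, up to 4 genes with the smallest p among those past the criterion in each list (all where 5 or fewer), and the 5 genes nearest to any of the 9 that passed, without predicted genes. Other genes named with values, such as collagens, Smads, Acta2, Skil and Loxl1, were chosen after their values were seen.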

Additional observations from a re-analysis of the deposited data

How the results depend on the processing

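The number of the 9 genes past the criterion was 1, and it was 0 with an unmoderated t-test, with the dimmest 50% of genes left out, with a fold limit of 2 and with an adjusted p under 0.05, and 2 with array weights. Leaving out single arrays gave 0 to 3, the 3 being Tgfbr2, Postn and Lox without sham replicate 1. With sham replicate 1 and CKD replicate 3 both left out, chosen after seeing the data, it was 2, Tgfbr2 and Lox. Pathway genes past the criterion numbered 14, against 6 with the t-test, 33 with array weights, 4 with the fold limit of 2, 0 with the adjusted p and 10 to 23 with single arrays left out. All genes numbered 1233, against 625 with the t-test, 2051 with array weights, 286 with the fold limit of 2, 2 with the adjusted p and 982 to 2037 with single arrays left out. The median of the 9 differences stayed between -0.11 and 0.09.

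Lox lost the p limit with the t-test and without the dimmest 50% of genes, a filter that removed Thbs1, Itgb8, Mstn and Lrrc32. Postn met the criterion with array weights at 1.13. The sign turned for Tgfb1 (0.085) and Thbs1 (-0.11) with both arrays left out and for Tgfbr1 with array weights (0.041). With single arrays left out, Tgfb1 ranged from -0.36 to 0.092, Tgfb2 from -0.75 to 0.052, Tgfbr1 from -0.068 to 0.062 and Thbs1 from -0.11 to 0.73. Of 152 alternative values of the 9 genes, 127 kept direction and side, 7 lost the call, 7 gained it and 11 turned. Bmp4, Cnn1 and Serpinh1 kept their call in every refit, and Itgb8 and Mstn in every refit that included them. The causes of these shifts were not tested.

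The study's figure legend describes pairs of sham and CKD mice, and the labels name no pairs. Deviations of same-numbered arrays correlated at -0.184, -0.025 and -0.187 across genes, and no array correlated best with its own number. These values cannot show whether the mice were paired, and the main comparison was unpaired. With the replicate number as a block, 2 of the 9 genes (Ccn2 and Lox), 18 pathway genes and 1201 of all genes were past the criterion.

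With 3 mice per group, the interval of 6 of the 9 genes still allowed a 2-fold difference, so that a gene not past the criterion is not shown to be unchanged. Array brightness sets no detection limit here, since the table holds no detection calls.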

Other observations

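Some genes ran close to Postn, Tgfb3 and Ccn2 over the 6 arrays, and these were looked up after the values were seen. The gene nearest to Postn by root mean square distance of centred log2 levels was Smoc1, another matricellular gene, at 0.28, with 3.88, 4.38 and 5.07 in CKD and 5.09, 4.07 and 3.45 in sham. Nearest to Tgfb3 was Snai2, a transcription factor of mesenchymal cells, at 0.06, with 8, 8.34 and 8.71 in CKD and 8.61, 7.99 and 7.88 in sham. Nearest to Ccn2 was Hgf, the hepatocyte growth factor, at 0.20, with 4.51, 4.09 and 4.99 in CKD and 3.20, 4.19 and 4.34 in sham. Hace1 (0.064) and Plcg1 (0.068) were nearly as near to Tgfb3 as Snai2 (0.062). For the genes not picked here, the nearest were Tas2r103 to Tgfb1 (0.077), Dtymk to Tgfb2 (0.09) and Frs3 to Tgfbr1 (0.031). Slc17a7 was nearest to Tgfbr2 (0.104) and Lzts2 to Thbs1 (0.242), and those of Lox are given above. Each distance is over 6 arrays that share the same tissue samples, and no test was made.

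Markers of other cell types also differed between arrays. The counts below stand beside 6.32% of all genes past the criterion in either direction. Of 10 epicardial markers 2 rose, Upk3b (2.38) and Upk1b (0.97), and Upk3b had 6.89, 8.96 and 9.83 in CKD against 7.85, 5.74 and 4.95 in sham. Of 17 immediate early genes 2 fell, Nr4a1 (-0.83) and Klf4 (-0.71), with a list mean of 6.53 to 6.71 in CKD and 6.83 to 7.11 in sham. Of 12 endothelial markers 0 changed (limma, 2 at an unadjusted p under 0.05), of 11 adipocyte markers 0 (0 at that p), of 8 platelet markers 1 fell, Pf4 (-1.33), and of 2 red cell markers measured 1 rose, Alas2 (2.96).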
